A study of Mus musculus with 12 samples.

Results

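The genes described here are 8 subunit genes of the nucleosome remodeling and deacetylase (NuRD) complex, *Mbd3*, *Mbd2*, *Chd4*, *Mta1*, *Mta2*, *Hdac1*, *Hdac2*, and *Gatad2a*, and both C-terminal binding protein corepressor genes, *Ctbp1* and *Ctbp2*. They are 10 of the 47643 genes in the deposited table and 10 of the 14479 genes that reached a mean of 1 TPM, the share of transcripts scaled by gene length and library size, and were tested. All 10 passed that filter. The genes were found by symbol. The list was selected by complex membership, but with the differences between all 3 groups already known, and the study itself had singled out *Ctbp1* for its values in ∆*Firre* and rescue cells. The values of *Ctbp1* are therefore given as a description with no p-value, and counts of called genes cover the other 9.

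The study asked what the long noncoding RNA *Firre* does in blood cell development. RNA was sequenced from common lymphoid progenitors (CLPs), bone marrow cells that give rise to lymphocytes, sorted as lineage-negative, IL7Rα-positive cells with low Sca1 and low c-Kit. The 12 libraries came from adult male mice, 1 library per mouse, in 3 groups of 4. WT mice carry the intact locus. ∆*Firre* mice carry a germline deletion of the whole *Firre* gene body and its promoter on a C57BL/6J background. *Firre*-rescue mice carry the same deletion together with tg(*Firre*), a *Firre* cDNA behind a tet-responsive element with a CMV minimal promoter, and the CAG-rtTA3 driver, which is active in most tissues rather than in CLPs alone. These mice were fed doxycycline. The study describes regular chow for its mice in general and doxycycline feeding for the rescue mice, so genotype and diet cannot be told apart if the other groups had regular chow.

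NuRD joins 2 enzyme activities in one complex: a chromatin remodeling ATPase of the CHD family, such as CHD4, and the histone deacetylases HDAC1 and HDAC2. MTA proteins form the scaffold that holds the deacetylases, GATAD2 proteins link CHD4 to the rest, and MBD2 and MBD3 occupy the same place in alternative forms of the complex, of which the MBD2 form binds methylated DNA. CTBP1 and CTBP2 are NAD(H)-binding corepressors that bridge DNA-binding repressors to histone-modifying enzymes. In early lymphoid cells NuRD is best known as a partner of the Ikaros family of transcription factors.

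Promoter windows from RefSeq (GRCm38, 250 bases before to 50 bases after an annotated start) were found for 8 of the 10 genes, 11 windows in all. The windows of the 3 genes with the highest *Firre*-rescue to ∆*Firre* ratios and of *Ctbp2*, the gene with the lowest, are printed because these genes carry the contrasts described below. Letters in capitals mark matches on either strand to GGGCGG (the GC box), CCAAT, or TATAAA. The windows lie at chr10:80399482-80399781 on the minus strand for *Mbd3*, chr12:113098028-113098327 on the plus strand for *Mta1*, chr5:33274955-33275254 on the minus strand for *Ctbp1*, and chr7:133081811-133082110 and chr7:133015198-133015497 on the minus strand for the first and second starts of *Ctbp2*.
Mbd3: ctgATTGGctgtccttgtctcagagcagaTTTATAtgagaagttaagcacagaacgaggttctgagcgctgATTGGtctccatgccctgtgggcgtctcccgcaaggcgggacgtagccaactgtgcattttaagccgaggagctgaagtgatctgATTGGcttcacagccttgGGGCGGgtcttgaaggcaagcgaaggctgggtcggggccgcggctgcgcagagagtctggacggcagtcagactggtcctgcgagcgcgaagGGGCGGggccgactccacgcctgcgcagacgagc
Mta1: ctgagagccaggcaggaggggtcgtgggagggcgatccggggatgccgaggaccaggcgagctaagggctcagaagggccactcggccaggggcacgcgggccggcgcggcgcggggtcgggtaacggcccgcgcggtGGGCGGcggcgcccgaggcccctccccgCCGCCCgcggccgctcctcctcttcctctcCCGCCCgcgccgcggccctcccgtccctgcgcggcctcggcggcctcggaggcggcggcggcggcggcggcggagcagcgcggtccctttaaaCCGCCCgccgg
Ctbp1: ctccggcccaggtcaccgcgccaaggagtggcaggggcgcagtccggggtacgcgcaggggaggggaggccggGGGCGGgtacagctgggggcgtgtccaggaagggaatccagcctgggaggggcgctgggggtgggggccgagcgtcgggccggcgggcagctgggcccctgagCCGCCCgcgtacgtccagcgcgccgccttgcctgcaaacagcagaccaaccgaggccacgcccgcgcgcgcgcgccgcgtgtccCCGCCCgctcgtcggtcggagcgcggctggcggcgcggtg
Ctbp2, first start: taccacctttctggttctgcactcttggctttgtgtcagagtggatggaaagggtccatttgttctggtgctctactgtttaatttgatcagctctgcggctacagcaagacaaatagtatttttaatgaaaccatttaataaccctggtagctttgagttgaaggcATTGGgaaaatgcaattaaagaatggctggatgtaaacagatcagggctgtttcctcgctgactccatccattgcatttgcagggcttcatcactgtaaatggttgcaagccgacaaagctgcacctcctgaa
Ctbp2, second start: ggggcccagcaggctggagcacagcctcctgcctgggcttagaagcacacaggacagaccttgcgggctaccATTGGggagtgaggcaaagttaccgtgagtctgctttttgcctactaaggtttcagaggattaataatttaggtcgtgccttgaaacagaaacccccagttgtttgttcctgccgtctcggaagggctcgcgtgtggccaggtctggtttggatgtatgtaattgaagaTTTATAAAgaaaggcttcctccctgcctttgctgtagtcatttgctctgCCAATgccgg

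The windows of *Mta1* and *Ctbp1* were 81.0% and 78.7% G or C and held 50 and 43 CG pairs, against a median of 52.7% and 7 pairs over the 32851 windows of the table. The *Mbd3* window was 60.7% G or C with 22 CG pairs. Both *Ctbp2* windows were lower, at 43.7% with 3 CG pairs and 52.0% with 8. Both lie inside the *Ctbp2* span (chr7:132986998-133124009), away from its outermost start on the minus strand, which no window covers. They are therefore internal starts and do not describe a promoter at that outermost start. The GC box was found 4 times in the *Mta1* window, 3 times in that of *Ctbp1*, 2 times in that of *Mbd3*, and not in either *Ctbp2* window. Over the 11 windows of the list, which belong to 8 genes, 9 held it, against 35.7% of all windows. *Chd4*, *Gatad2a*, and *Ctbp2* have 2 windows each, and those of *Chd4* overlap and share matches, so the windows are not independent. CCAAT was held by 6 of the 11 and by 37.4% of all windows, and TATAAA by 2 and by 13.6%. In the second *Ctbp2* window the 2 TATAAA matches, one on each strand, overlap. A match is a description of letters, and a window without one says only that these letters are not there.

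*Firre* itself was at 0 TPM in every ∆*Firre* library, at 25.2 to 31.6 TPM in WT, and at 59.9 to 174 TPM in *Firre*-rescue libraries. Of the sort markers, *Il7r* lay between 353 and 525 TPM in all 12 libraries and *Ly6a*, which encodes Sca1, between 24.1 and 53.1 TPM, with overlapping groups. *Kit* was at 61.9 to 82.9 TPM in WT, 68.6 to 80.9 TPM in ∆*Firre*, and 48.2 to 62.3 TPM in *Firre*-rescue libraries, the last below all of ∆*Firre*. The lymphoid progenitor gene *Flt3* lay between 506 and 709 TPM, and *Dntt* was at 4315 to 6725, 5443 to 5681, and 6224 to 6562 TPM in the 3 groups, with *Firre*-rescue above all of ∆*Firre*. Reads recovered from the spacing of the TPM values came to 10846564 to 17910645 per WT library, 14157053 to 17309185 per ∆*Firre* library, and 25388637 to 32158935 per *Firre*-rescue library, and a gene of the list had between 297 (*Ctbp2*) and 36446 (*Chd4*) reads in a library. No WT or ∆*Firre* library shares the number range of the 4 *Firre*-rescue libraries, so range and genotype cannot be told apart there. Of 10 CLP markers, 2 were called higher and 2 lower in *Firre*-rescue against each of the other groups, with sums of 6530 to 9137 TPM in WT, 7611 to 7938 TPM in ∆*Firre*, and 9134 to 9963 TPM in *Firre*-rescue libraries. Markers of other cells moved with the *Firre*-rescue group too. All 6 basophil and mast cell markers were called lower in *Firre*-rescue than in ∆*Firre* libraries, with summed levels of 64.0 to 142 TPM against 2918 to 4291 TPM (1052 to 9045 TPM in WT). Of 9 B lineage and plasma cell markers, 6 were called higher and 3 lower, while their sum was 742 to 1085 TPM against 1814 to 3619 TPM (982 to 1827 TPM in WT). Of 8 T and NK cell markers 2 were called lower, with summed levels of 235 to 287 TPM against 374 to 592 TPM (319.5 to 657 TPM in WT) and *Cd3e* at 0 in every *Firre*-rescue library. The 3 tested of 5 ILC2 markers were called lower. Of the other lists, 1 of 6 tested neutrophil and monocyte markers was called lower, 1 of 4 plasmacytoid dendritic cell markers was called higher and 1 lower, and of 4 erythroid markers none was called against ∆*Firre* and 1 was called higher against WT, with summed levels of 13.5 to 64.9 TPM in WT, 19.7 to 103 TPM in ∆*Firre*, and 16.0 to 111 TPM in *Firre*-rescue libraries. None of the markers was called between ∆*Firre* and WT. Their part in the results below was not tested. In sorted bulk RNA, fewer cells of a type and less RNA per cell cannot be told apart.

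**Figure D1:**
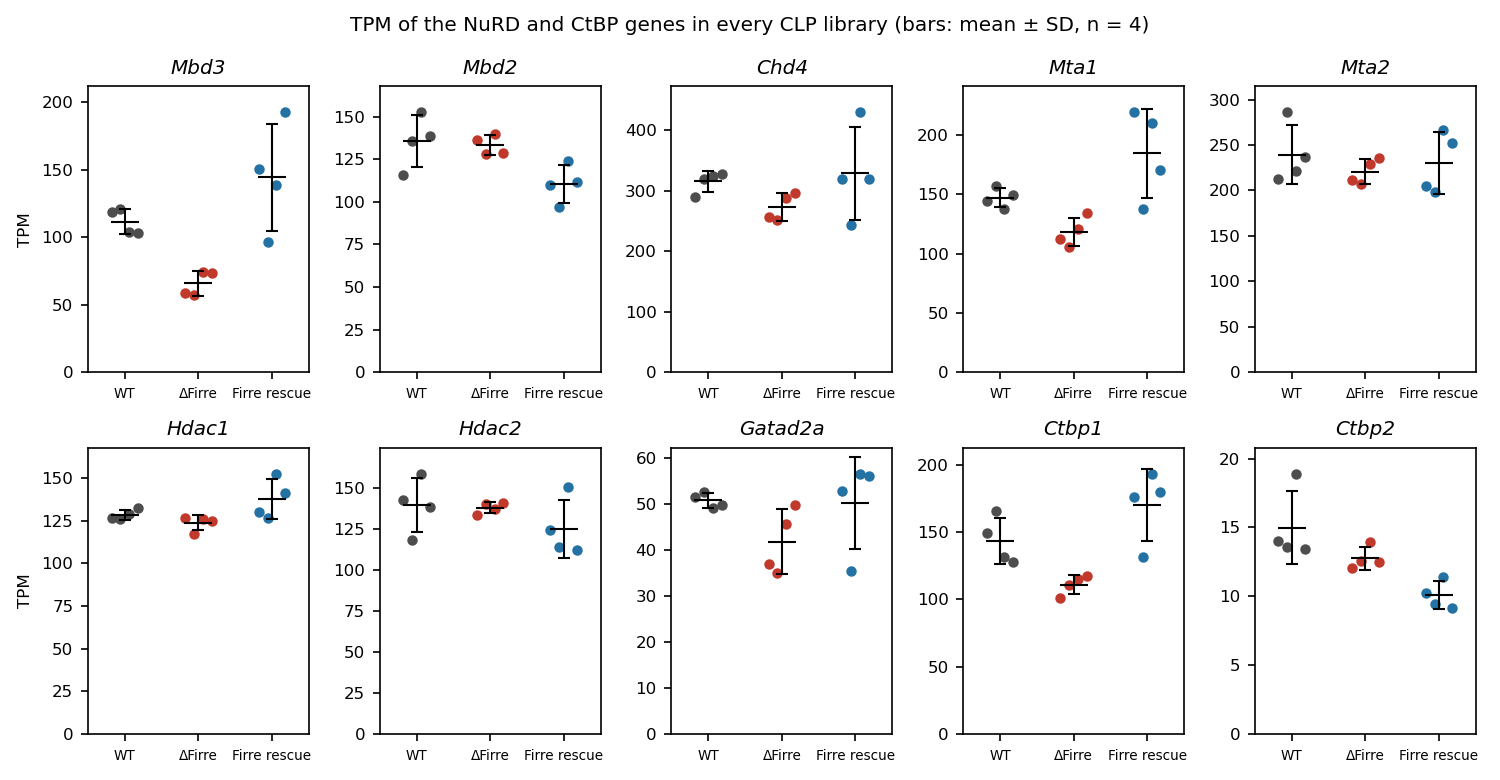
TPM of the 10 genes (y axis, each from 0) in the 4 WT, 4 ∆*Firre*, and 4 *Firre*-rescue libraries; points are libraries and bars show the mean ± SD. *Mbd3* separates ∆*Firre* libraries (57.1 to 74.3 TPM) from the others (96.2 TPM and above), whereas *Hdac1* lies between 117 and 153 TPM throughout.

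All 10 genes were expressed in all 12 libraries, and on the TPM scale, which is per transcript length, their order was led by the ATPase *Chd4*, at 315 ± 17.1 TPM in WT (SD, n = 4), and closed by *Ctbp2*, at 14.99 ± 2.63 TPM. *Mta2* followed *Chd4* at 239.5 ± 32.6 TPM. *Mta1*, *Ctbp1*, *Hdac2*, *Mbd2*, *Hdac1*, and *Mbd3* lay close together, from 147 ± 7.98 down to 112 ± 9.45 TPM, and neighbors in that order differed by less than the SD of one or the other, except *Hdac1* and *Mbd3*. *Gatad2a* was at 50.7 ± 1.58 TPM. In WT, 8 of the 10 genes were thus higher than at least 88.8% of tested genes, *Gatad2a* than 72.9%, and *Ctbp2* than 41.5%. *Chd4*, *Mta2*, *Gatad2a*, and *Ctbp2* held the same places in all 3 groups. *Mbd3* was number 8 of the 10 in WT and ∆*Firre* CLPs and number 5 in *Firre*-rescue CLPs.

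In ∆*Firre* against WT CLPs, none of the 9 genes was called at an adjusted p of 0.1 (limma, Benjamini-Hochberg over all genes tested), where 3 of 14479 genes, 0.0207%, were called overall. At an unadjusted p under 0.05 there were 2 of 9 (*Mbd3* and *Mta1*), beside 767 genes, or 5.30%, overall. limma-voom on the recovered reads called none of the 9 and no gene at all. All 10 fitted differences lay below 0, from -0.75 to -0.01 on the log2 scale, with a median of -0.21, while the median over all tested genes was -0.06 and 61.4% of them lay below 0. After rescaling by median ratios, *Mbd2*, *Hdac1*, and *Hdac2* lay above 0. In 2 of the 9 genes (*Mbd3* and *Mta1*) every ∆*Firre* library was below every WT library. Such a separation was seen for 5.33% of all genes in either direction and for 4.49% with ∆*Firre* lower.

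In *Firre*-rescue against ∆*Firre* CLPs, 3 of the 9 genes were called, *Mbd3* and *Mta1* higher and *Mbd2* lower, beside 27.9% of all tested genes (8.58% higher and 19.3% lower). The share of the list, 3 of 9, is near the background. With an empirical null, fitted to the spread of all genes, none of the 9 and 0 of the 14479 genes were called, with an adjusted p of 0.964 for *Mbd3*, *Mta1*, and *Mbd2*, and 421 genes were at an unadjusted p under 0.05. The median difference of the 10 genes was 0.19 and that of all genes -0.16. The groups did not overlap in 5 of the 9 genes, *Mbd3*, *Mta1*, and *Hdac1* with *Firre*-rescue higher and *Mbd2* and *Ctbp2* with it lower, and in 21.9% of all genes. Of the called genes, 30.7% were higher, and 50.2% after rescaling by median ratios. Under that rescaling, which called 26.0% of all genes, 5 of the 9 were called, all of them higher (*Mbd3*, *Mta1*, *Chd4*, *Hdac1*, and *Gatad2a*), and *Mbd2* was not.

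In *Firre*-rescue against WT CLPs, 2 of the 9 genes were called, *Ctbp2* and *Mbd2*, both lower, beside 24.3% of all genes (4.82% higher and 19.4% lower). The empirical null again called none (adjusted p = 0.961 for both genes), and a fit of only these 8 libraries called 15.6% of all genes but neither *Ctbp2* (adjusted p = 0.106) nor *Mbd2* (adjusted p = 0.131). The median of the 10 genes was -0.0039 and that of all genes -0.21. *Ctbp2* was the only one of the 10 whose 4 *Firre*-rescue and 4 WT libraries did not overlap, a separation seen in 18.0% of all genes. Of the called genes 19.9% were higher, and 50.6% after rescaling by median ratios, which called 17.6% of all genes and 3 of the 9, *Mbd3*, *Mta1*, and *Hdac1*, all higher. Both comparisons with *Firre*-rescue use the same 4 *Firre*-rescue libraries, and both comparisons with ∆*Firre* the same 4 ∆*Firre* libraries, so they are not independent of each other.

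**Figure D2:**
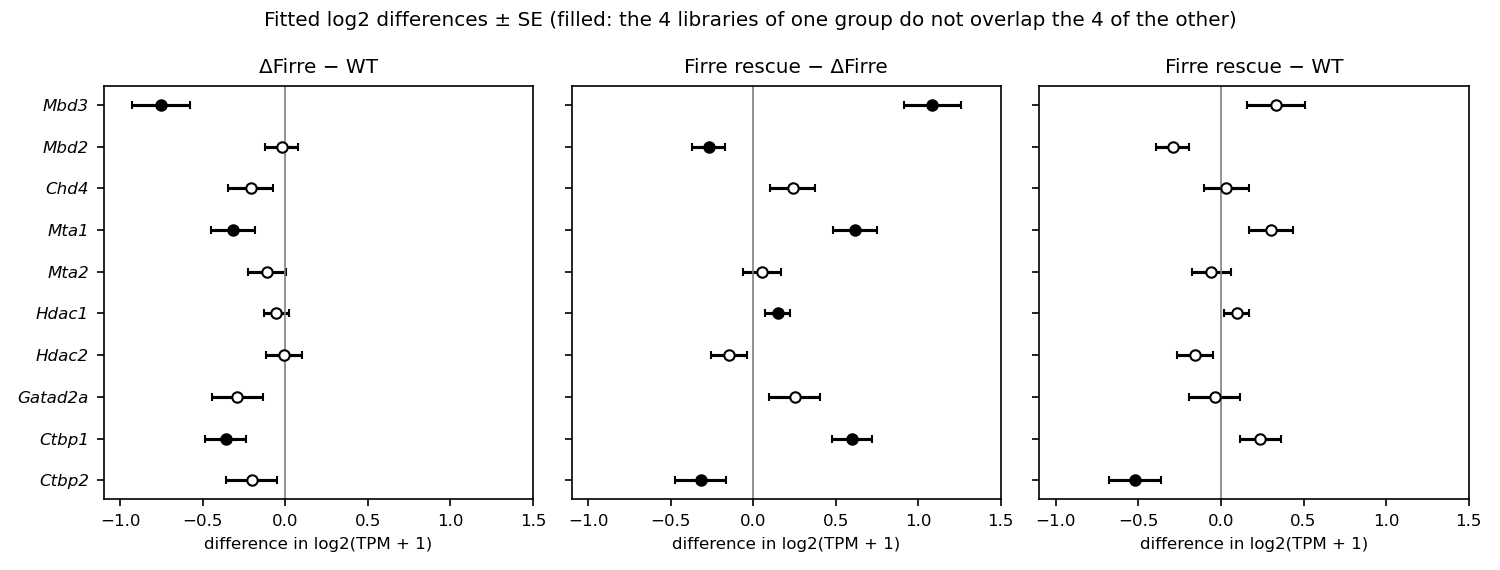
Difference in log2(TPM + 1) of each gene ± SE in the 3 comparisons, from one limma fit over the 12 libraries; filled points mark genes whose groups of 4 do not overlap. All 10 points lie below 0 for ∆*Firre* against WT, and for *Firre*-rescue against ∆*Firre* they run from -0.32 (*Ctbp2*) to 1.09 (*Mbd3*).

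*Mbd3* (ENSMUSG00000035478, chr10:80392539-80399531), the methyl-CpG-binding domain subunit that has itself lost high affinity for methylated DNA, showed the widest differences of the list in both comparisons with ∆*Firre*. It measured 119, 121, 104, and 103 TPM in WT libraries 6, 8, 10, and 11, then 58.8, 57.1, 74.3, and 73.9 TPM in ∆*Firre* libraries 8, 9, 11, and 12. The *Firre*-rescue libraries 1 to 4 held 150.1, 96.2, 139, and 193 TPM. Every ∆*Firre* library was thus below every other library, and *Firre*-rescue 2 was below all of WT. The ∆*Firre* to WT ratio of the means was 0.592, a log2 difference of -0.75 ± 0.17 (SE) with an adjusted p of 0.889 and an unadjusted p of 0.000884. The difference was of the same size in both library number ranges that hold WT and ∆*Firre*, at -0.74 and -0.76 with 2 libraries per group in each. In *Firre*-rescue *Mbd3* rose to 2.19 times the ∆*Firre* mean, a log2 difference of 1.09 ± 0.17 with an adjusted p of 0.00167, and it did not differ from WT at the threshold (0.33 ± 0.17, 95% interval -0.05 to 0.71, adjusted p = 0.216). Without *Firre*-rescue 2 that last difference was 0.51 with an adjusted p of 0.0328. Leaving out *Firre*-rescue 4 instead moved it the other way, to 0.179 with an adjusted p of 0.485.

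*Mbd2* (ENSMUSG00000024513, chr18:70568225-70629134), which encodes the subunit that binds methylated CpG and takes the place of MBD3 in the other form of the complex, did not follow *Mbd3*. WT libraries 6, 8, 10, and 11 held 116, 136, 153, and 139 TPM. ∆*Firre* libraries 8, 9, 11, and 12 held 137, 128, 139.8, and 128 TPM, inside the WT range. *Firre*-rescue libraries 1 to 4 held 110.1, 96.8, 124, and 111 TPM, below every ∆*Firre* library and overlapping WT 6. The log2 difference was -0.02 ± 0.10 for ∆*Firre* against WT (95% interval -0.24 to 0.19). *Mbd2* fell in *Firre*-rescue by 0.27 on the log2 scale against ∆*Firre* (SE 0.10, adjusted p = 0.0744) and by 0.29 against WT (adjusted p = 0.0622). These calls were close to the threshold. The first was lost without any 1 of the 4 ∆*Firre* libraries or of *Firre*-rescue 1, 2, and 4 (adjusted p of 0.109 to 0.160), and the second without any 1 of WT 8, 10, and 11 and *Firre*-rescue 1, 2, and 4 (0.102 to 0.157). Neither was made after rescaling by median ratios (-0.15, adjusted p = 0.222, and -0.10, adjusted p = 0.458).

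Because MBD2 and MBD3 exclude each other from the complex, their transcripts were also read as a share of their sum. A factor applied to a whole library cannot move that share. A shift that depends on exon GC content, 63.1% for *Mbd3* and 51.6% for *Mbd2*, can move it, and the shares were not corrected for GC content. *Mbd3* made up 50.6%, 47.1%, 40.5%, and 42.6% of the pair in the WT libraries and 30.1%, 30.9%, 34.7%, and 36.5% in the ∆*Firre* libraries. In the *Firre*-rescue libraries it made up 57.7%, 49.9%, 52.8%, and 63.3%. The means were 45.2% ± 4.55, 33.1% ± 3.07, and 55.9% ± 5.91 (SD, n = 4). The ∆*Firre* libraries did not overlap either of the other groups, and WT and *Firre*-rescue overlapped through WT 6 and *Firre*-rescue 2. RNA shares say nothing of the share of protein in the complex.

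**Figure D3:**
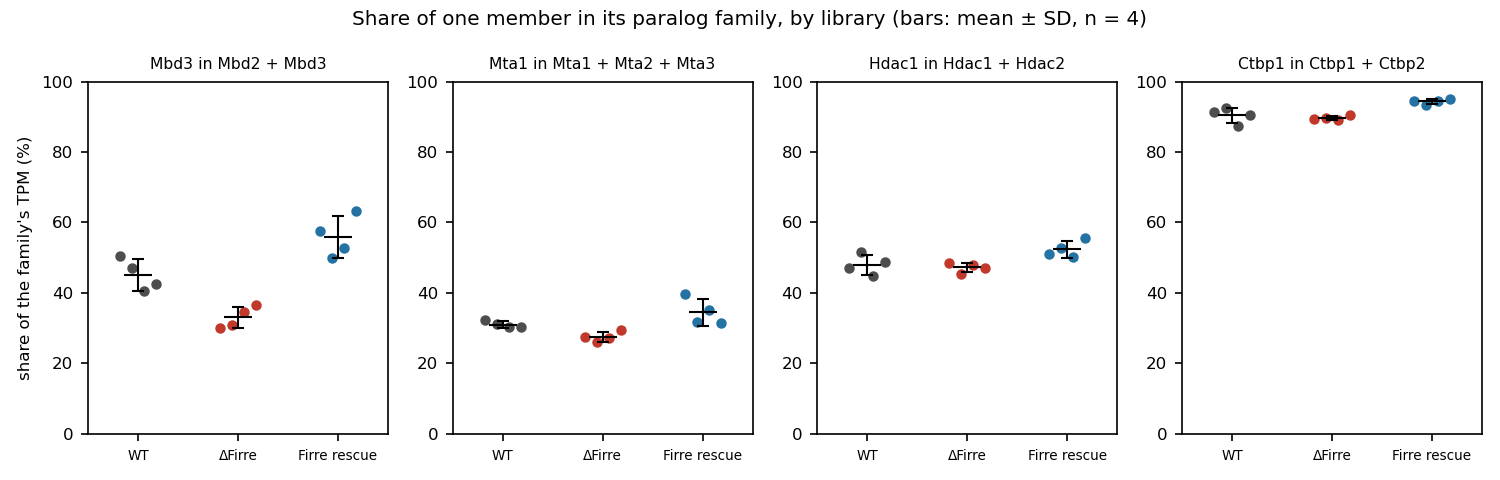
Share of *Mbd3*, *Mta1*, *Hdac1*, and *Ctbp1* in the summed TPM of its paralog family (y axis, 0 to 100%) in each library, by group, with the mean ± SD. The *Mbd3* share is 30.1% to 36.5% in ∆*Firre* libraries and at least 40.5% in the others, while the *Ctbp1* share is at least 87.4% everywhere and highest in *Firre*-rescue.

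*Mta1* (ENSMUSG00000021144, chr12:113098248-113137206) and *Mta2* (ENSMUSG00000071646, chr19:8941920-8952300) encode alternative scaffold subunits that recruit the deacetylases. *Mta1* measured 145, 157, 138, and 149 TPM in the WT libraries, 113, 106, 120.4, and 134 TPM in the ∆*Firre* libraries, and 219, 138, 209.7, and 171 TPM in the *Firre*-rescue libraries. Its ∆*Firre* libraries were all below those of WT, and *Firre*-rescue 2 lay inside the WT range while the other 3 lay above it. The log2 difference was -0.32 ± 0.13 for ∆*Firre* against WT (adjusted p = 0.929), -0.39 and -0.24 within the library number ranges. *Mta1* rose in *Firre*-rescue against ∆*Firre* by 0.62 ± 0.13, to 1.56 times the mean (adjusted p = 0.00832). Corrected for exon GC content, that rise was 0.26 by splines (adjusted p = 0.171) and 0.39 by bin medians (adjusted p = 0.0208). Against WT *Mta1* stood at 0.30 ± 0.13 (adjusted p = 0.142), or 0.43 with an adjusted p of 0.0243 without *Firre*-rescue 2. *Mta2* lay between 199 and 286 TPM in all 12 libraries, and its differences were -0.11, 0.05, and -0.06, each within 1 SE of 0. Its 95% interval for *Firre*-rescue against ∆*Firre* was -0.20 to 0.30. With *Mta3*, the third paralog, the *Mta1* share of family TPM averaged 31.0% ± 0.885 among WT, 27.6% ± 1.45 among ∆*Firre*, and 34.5% ± 3.79 among *Firre*-rescue libraries.

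The ATPase gene *Chd4* (ENSMUSG00000063870, chr6:125095980-125130591) was the most abundant of the list. It measured 290.1, 319, 325, and 327 TPM in WT, 257, 251, 289, and 296 TPM in ∆*Firre*, and 319.8, 244, 429.6, and 319.9 TPM in *Firre*-rescue libraries. *Firre*-rescue 2 and *Firre*-rescue 3 were the lowest and highest of all 12 libraries, so the groups overlapped in each comparison that includes them. The differences were -0.21 ± 0.14, 0.24 ± 0.14, and 0.03 ± 0.14, with adjusted p of 0.964, 0.237, and 0.903. Without *Firre*-rescue 2 the *Firre*-rescue against ∆*Firre* difference was 0.37 with an adjusted p of 0.0396, and without *Firre*-rescue 3 it was 0.10 with an adjusted p of 0.529. *Gatad2a* (ENSMUSG00000036180, chr8:69907069-69996402), the bridge between CHD4 and the MBD subunit, had the same outline. It measured 51.5, 52.6, 49.1, and 49.7 TPM in WT, 36.9, 34.9, 45.5, and 49.7 TPM in ∆*Firre*, and 52.7, 35.4, 56.6, and 56.1 TPM in *Firre*-rescue libraries. Its differences were -0.29 ± 0.16, 0.25 ± 0.16, and -0.04 ± 0.16, none called, and without *Firre*-rescue 2 the second was 0.41 with an adjusted p of 0.0408.

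The deacetylase genes *Hdac1* (ENSMUSG00000028800, chr4:129516104-129542646) and *Hdac2* (ENSMUSG00000019777, chr10:36974297-37001889) differed little between WT and ∆*Firre*, by -0.05 ± 0.08 and -0.01 ± 0.11. *Hdac1* measured 127, 126, 129, and 132 TPM in WT, 127, 117, 126, and 125 TPM in ∆*Firre*, and 129.8, 127, 153, and 141 TPM in *Firre*-rescue libraries. Its *Firre*-rescue libraries lay just above all ∆*Firre* libraries, with a log2 difference of 0.15 ± 0.08 that was not called (adjusted p = 0.188). After rescaling by median ratios it was 0.27 with an adjusted p of 0.011, and after centering within bins of GC content 0.30 with an adjusted p of 0.00731. *Hdac2* measured 143, 119, 159, and 138 TPM in WT, 134, 141, 137, and 141 TPM in ∆*Firre*, and 125, 114, 151, and 112 TPM in *Firre*-rescue libraries, and the groups overlapped throughout. In *Firre*-rescue its differences were -0.15 ± 0.11 against ∆*Firre* and -0.16 ± 0.11 against WT, neither called, but without *Firre*-rescue 3 they were -0.24 (adjusted p = 0.0896) and -0.25 (adjusted p = 0.0815). *Hdac1* made up 48.0% ± 2.86, 47.2% ± 1.36, and 52.4% ± 2.37 of the pair in WT, ∆*Firre*, and *Firre*-rescue CLPs. A processed pseudogene of *Hdac1* is annotated in the mouse genome, and how reads with several matches were counted is not given in the sources used here, so the level of *Hdac1* is uncertain to that extent.

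*Ctbp1* (ENSMUSG00000037373, chr5:33247723-33275004) measured 149, 165, 132, and 128 TPM in WT libraries 6, 8, 10, and 11. The ∆*Firre* libraries held 101, 110.4, 115, and 117 TPM, all below WT. The *Firre*-rescue libraries held 176, 132, 194, and 179 TPM, of which the second lay inside the WT range and the other 3 above it. The ∆*Firre* mean was 0.774 times that of WT, a log2 difference of -0.36 ± 0.12, at -0.43 and -0.30 within the library number ranges. The *Firre*-rescue mean was 1.53 times that of ∆*Firre*, a log2 difference of 0.60 ± 0.12. From these libraries the study named the gene as lower in ∆*Firre* and higher in *Firre*-rescue. It used its own test on read counts rather than the TPM fit given here. The *Firre*-rescue difference from WT, which rests on the same libraries and is likewise a description, was 0.24 ± 0.12, and 0.36 without *Firre*-rescue 2.

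*Ctbp2* (ENSMUSG00000030970, chr7:132986998-133124009), the paralog of *Ctbp1* with largely overlapping roles in development, lay below 0 in all 3 comparisons, whereas *Ctbp1* lay above 0 in both with *Firre*-rescue. It measured 14.03, 13.6, 18.9, and 13.4 TPM in WT, 12.04, 12.6, 13.96, and 12.5 TPM in ∆*Firre*, and 10.3, 9.40, 11.4, and 9.18 TPM in *Firre*-rescue libraries. Each *Firre*-rescue library was below each of the other 8. *Ctbp2* fell in *Firre*-rescue against WT to 0.672 times the mean, by 0.52 on the log2 scale (SE 0.16, adjusted p = 0.0393). Without WT 10, its highest library, that difference was -0.41 with an adjusted p of 0.106. It was -0.35 after rescaling by median ratios (adjusted p = 0.150) and -0.26 after quantile normalization (adjusted p = 0.287). Against ∆*Firre* the *Firre*-rescue difference was -0.32 ± 0.16 (adjusted p = 0.173), and -0.13 after quantile normalization. For ∆*Firre* against WT it was -0.20 ± 0.16 (adjusted p = 0.986), and -0.09 without WT 10. *Ctbp1* averaged 90.4% ± 2.15 of the pair among WT, 89.7% ± 0.533 among ∆*Firre*, and 94.3% ± 0.747 among *Firre*-rescue libraries, and the *Firre*-rescue libraries (93.3% to 95.1%) did not overlap the other 8 (87.4% to 92.4%). The *Ctbp2* locus overlaps 2 other annotated genes, *Gm35364* and *4932437C15Rik*, and strand settings of the counting are not given in the sources used here.

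In rank order, most differences followed exon GC content, but *Ctbp2* was the lowest of the 10 in both comparisons with *Firre*-rescue. Exon GC content was not used in choosing the genes. It was 63.1% for *Mbd3*, 57.2% for *Mta1*, 56.8% for *Ctbp1*, 55.8% for *Gatad2a*, 55.4% for *Ctbp2*, 53.6% for *Chd4*, 53.0% for *Mta2*, 51.6% for *Mbd2*, 50.2% for *Hdac1*, and 41.0% for *Hdac2*, against a median of 49.5% over 13086 tested genes. Across the 10 genes the Spearman correlation of GC content with the log2 difference was -0.96 for ∆*Firre* against WT, 0.76 for *Firre*-rescue against ∆*Firre*, and 0.64 for *Firre*-rescue against WT. Across all 13086 genes it was -0.36, 0.45, and 0.32. These describe genes of the same 12 libraries, and genes are not independent replicates. In the 655 genes of the highest twentieth of GC content, which includes *Mbd3*, the median differences were -0.31, 0.49, and 0.17, beside -0.75, 1.09, and 0.33 for *Mbd3*. In the bin of *Mta1* and *Ctbp1* the medians were -0.21, 0.21, and 0.01. In the bin of *Gatad2a* and *Ctbp2* they were -0.18, 0.16, and -0.01, so *Gatad2a* was near its bin in all 3 comparisons and *Ctbp2* in the first, while *Ctbp2* stood below its bin in both comparisons with *Firre*-rescue.

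**Figure D4:**
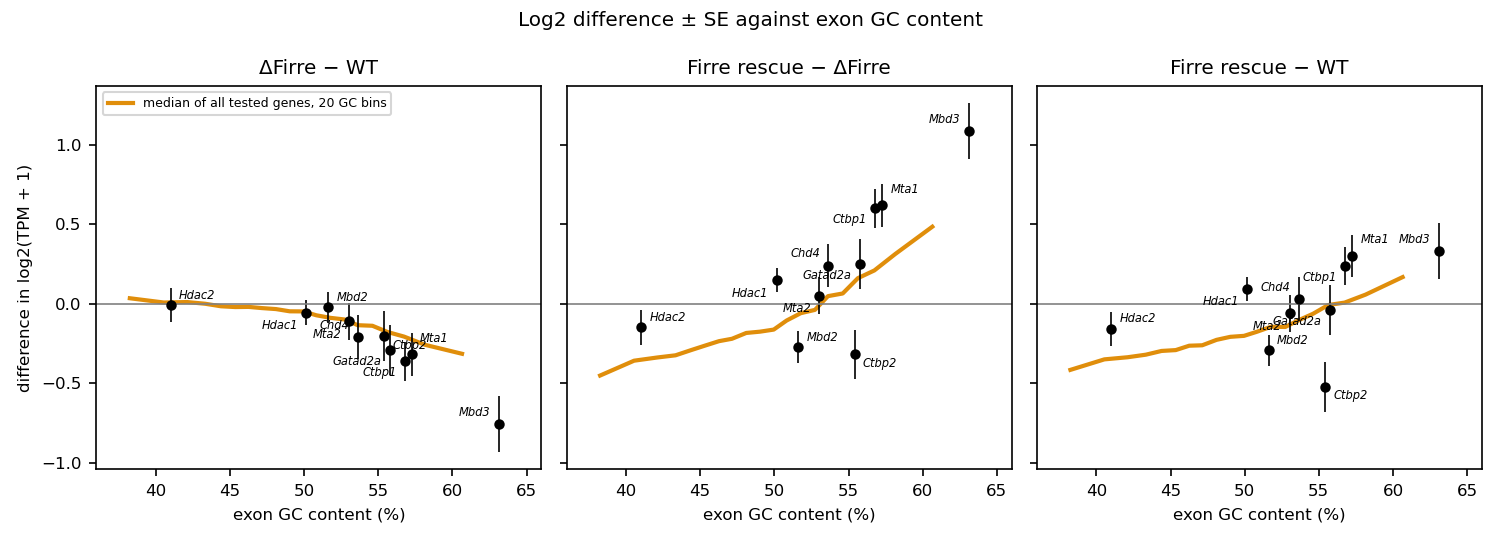
Difference in log2(TPM + 1) ± SE of each gene (y axis) against its exon GC content in percent (x axis) in the 3 comparisons; the line joins the medians of all tested genes in 20 bins of GC content. *Mbd3*, at 63.1% GC, lies beyond the line in each panel, and *Ctbp2* lies below it in both panels with *Firre*-rescue.

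Values corrected for exon GC content, a step chosen after seeing the data, gave other calls for the genes of high GC content. With a spline for each library, the *Firre*-rescue against ∆*Firre* difference was 0.32 (adjusted p = 0.18) for *Mbd3* and 0.26 (adjusted p = 0.171) for *Mta1*, neither called, and 0.27 for *Ctbp1*. That correction called 2 of the 9 genes, *Ctbp2* (-0.56, adjusted p = 0.051) and *Mbd2* (-0.29, adjusted p = 0.0804), both lower, and 15.2% of 13086 genes overall. Removing the median of 20 bins instead gave 0.59 (adjusted p = 0.00491) for *Mbd3*, 0.39 (adjusted p = 0.0208) for *Mta1*, and 0.37 for *Ctbp1*, and called 4 of the 9, with *Hdac1* higher and *Ctbp2* lower beside them, and 16.9% of the 13086 genes. *Ctbp2* was lower in *Firre*-rescue than in WT under both (-0.66, adjusted p = 0.0216, and -0.51, adjusted p = 0.0671). In that comparison the spline also called *Mbd2* lower (-0.32, adjusted p = 0.0543), which the bins did not (-0.14, adjusted p = 0.311), and the bins called *Mta1* (0.28, adjusted p = 0.0869) and *Hdac1* (0.29, adjusted p = 0.0104) higher, which the spline did not (adjusted p = 0.640 and 0.418). They called 18.8% and 14.5% of the 13086 genes. For ∆*Firre* against WT, *Mbd3* was at -0.49 and -0.44, *Mta1* at -0.17 and -0.11, and *Ctbp1* at -0.23 and -0.15. The unadjusted p in these fits was 0.00388 and 0.00148 for *Mbd3*, and 0.153 and 0.274 for *Mta1*. The sign for *Mbd3* against WT in *Firre*-rescue differed between the spline, at -0.17, and the bins, at 0.15.

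**Figure D5:**
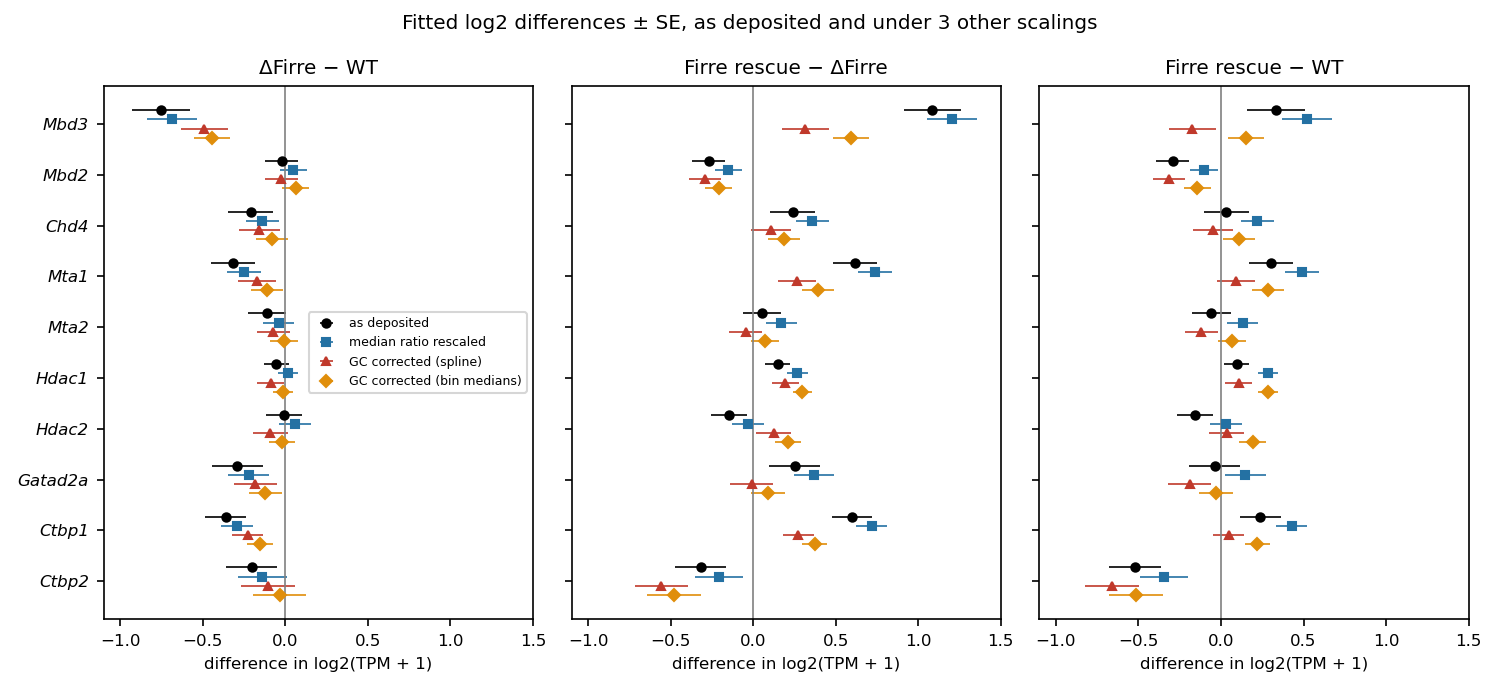
Difference in log2(TPM + 1) ± SE of each gene in the 3 comparisons, from TPM as deposited, after median ratio rescaling, and after both corrections for exon GC content. In the middle panel *Mbd3* moves from 1.09 to 0.32 or 0.59 under the corrections, while *Ctbp2* moves from -0.32 to -0.56 or -0.48.

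Of the remaining NuRD subunit genes, none of the 6 tested was called for ∆*Firre* against WT or for *Firre*-rescue against ∆*Firre*. Their medians were -0.10 and 0.09, and 0.0207% and 27.9% of all genes were called. *Mta3*, the scaffold paralog best known in B lymphocytes, averaged 87.5 ± 20.5 TPM in the WT, 88.9 ± 4.79 TPM in the ∆*Firre*, and 117 ± 13.98 TPM in the *Firre*-rescue libraries (SD, n = 4), and was called higher in *Firre*-rescue against WT (0.44 ± 0.16, adjusted p = 0.0764). Its *Firre*-rescue libraries (97.1 to 130 TPM) overlapped those of WT (58.4 to 107 TPM). They were all above those of ∆*Firre* (0.39 ± 0.16, adjusted p = 0.107). The histone chaperone genes *Rbbp4* and *Rbbp7* had WT means of 155 and 386 TPM and differences of at most 0.16 in size. *Gatad2b* was at 52.3, 48.5, and 40.3 TPM, and *Chd3* at 110, 90.0, and 101 TPM, in WT, ∆*Firre*, and *Firre*-rescue, and the *Firre*-rescue against WT difference of *Gatad2b* was -0.41 ± 0.17 (adjusted p = 0.112). *Cdk2ap1* was at 83.4, 66.7, and 72.4 TPM. *Chd5*, the neuronal ATPase paralog, was below 0.33 TPM in every library and was not tested. *Chd4* held 74.1% ± 2.87, 75.2% ± 1.27, and 76.9% ± 2.29 of the *Chd3* and *Chd4* sum in the 3 groups.

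Among 10 transcription factors and cofactors that bring NuRD to DNA, 9 were tested, none was called for ∆*Firre* against WT, and 4 were called in each comparison with *Firre*-rescue, 3 lower and 1 higher, beside 27.9% and 24.3% of all genes. *Ikzf1*, which encodes Ikaros, was at 459 ± 13.2, 422 ± 15.3, and 427 ± 50.8 TPM and was not called. Its relatives fell in *Firre*-rescue against ∆*Firre*, *Ikzf3* (Aiolos) from 16.9 ± 6.26 to 4.17 ± 1.07 TPM (-1.75 ± 0.31, adjusted p = 0.00271) and *Ikzf2* (Helios) from 24.9 ± 2.36 to 8.09 ± 1.53 TPM (-1.52 ± 0.20, adjusted p = 0.000488). The groups did not overlap for either. Both fell against WT as well (-1.72 and -1.43), and *Bcl11b*, a T lineage factor, fell by 1.04 against ∆*Firre* and 1.32 against WT. *Zfpm1*, the GATA1 cofactor FOG1, rose from 7.37 ± 2.19 to 25.9 ± 9.85 TPM against ∆*Firre* (1.64 ± 0.29, adjusted p = 0.00305), and its exon GC content was 66.9%. *Ikzf2* and *Ikzf3* are also expressed in mature T and NK cells, whose marker values are given above.

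Of 12 partners of CtBP, 10 were tested and 1 was called. *Ehmt2*, the histone H3K9 methyltransferase G9a, was higher in *Firre*-rescue than in ∆*Firre* CLPs (101 ± 26.9 against 56.2 ± 10.1 TPM, 0.81, adjusted p = 0.0125) with overlapping libraries and an exon GC content of 60.3%. *Kdm1a* and *Rcor1*, which encode the LSD1 demethylase and its CoREST partner, were at 75.1 and 86.2 TPM in WT and were not called. Deacetylase complexes other than NuRD served as a comparison. In the Sin3 complex, which shares HDAC1 and HDAC2 with NuRD, 3 of 10 genes were called for *Firre*-rescue against ∆*Firre*, *Arid4b* (-0.54) and *Arid4a* (-0.46) lower and *Sin3b* (0.37) higher, and 4 of 10 were called against WT, *Arid4b*, *Arid4a*, *Sin3a* (-0.30), and *Ing1* (-0.27), all lower. *Tbl1xr1* and *Tbl1x*, which encode WD40 subunits of the NCoR complex, were lower in *Firre*-rescue than in ∆*Firre* CLPs (-0.62 ± 0.08, adjusted p = 0.000418, and -0.33, adjusted p = 0.0676), and *Tbl1xr1* was lower than in WT (-0.63). *Bcl11b*, *Ehmt2*, *Ikzf1*, *Kdm1a*, *Rcor1*, *Sin3a*, *Sin3b*, and *Tbl1x* are outside the rule for named genes and were named after their values were seen. Over the 41 tested genes of these lists, 0, 11, and 10 were called in the 3 comparisons, close to the shares of all genes (0.0207%, 27.9%, and 24.3%).

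Patterns most like those of *Mbd3* and *Ctbp1* were read from the Pearson correlation of log2(TPM + 1) over the 12 libraries, as a description. *Mbd3* and *Ctbp1* correlated with each other at 0.93, and *Mta1* with them at 0.87 and 0.92. *Mbd2* and *Mbd3* were at -0.40, and *Ctbp1* and *Ctbp2* at -0.34. The 5 genes closest to *Mbd3* were *Lyl1*, *E130309D02Rik* (both 0.97), *H2-DMa*, *Parp10*, and *Metrn* (all 0.96), and the 5 closest to *Ctbp1* were *Lyl1* (0.96), *Ttyh3*, *Kif1c*, *Srebf1*, and *Ssbp4* (0.96). The libraries share their group differences and their differences by GC content, which such values contain.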

How the data were processed

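CLP RNA was made into poly(A)-selected libraries and sequenced as paired ends. The authors trimmed reads with cutadapt, mapped them to mm10 with TopHat2 2.1.1, assigned them to Gencode genes by featureCounts, and deposited TPM for 47643 genes in 12 libraries. TPM were deposited with no library size, and no file of counts was used here. The values were taken as deposited, and groups were taken from the sample labels.

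Genes with a mean of at least 1 TPM entered limma 3.58.1 (R 4.3.3) as log2(TPM + 1), with a mean-variance trend and the 3 groups in one fit. Such differences understate the change of low genes. P-values were two-sided, adjusted by the Benjamini-Hochberg method over 14479 genes, and called at 0.1 or less. They rest on the spread between mice within groups, pooled over the 3 groups and moderated toward the trend over all genes.

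Gene symbols were found for 32799 genes. Reads were recovered from the spacing of TPM: 99.99% of values above 0 were whole within 0.02 reads, and limma-voom on them called 0, 4313, and 2888 genes in the 3 comparisons. Read numbers cover counting error only. Exon GC content was taken from an earlier annotation, matched on gene identifiers (13086 genes, 90.4% of those tested), and positions and promoters from RefSeq on GRCm38. The fit was tested on simulated data for *Firre*-rescue against ∆*Firre*. With no gene changed it made 0 false calls. With 200 genes changed 2-fold it found 118 and made 18 false calls. With a GC bias added to such data, it made 423 false calls before a GC correction and 11 after.

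The genes and the pathway lists were chosen with earlier results of these data known. Named genes were all 10 of the list, every other NuRD subunit, in each pathway list and comparison the 2 largest rises and falls among called genes whose groups did not overlap, *Firre*, and the 5 genes most correlated with *Ctbp1* and with *Mbd3*. One result that this rule names is not reported here. Alternatives were other pseudocounts (0.1 and 5), filters, scalings, nulls, blocks, each library left out, and, chosen after seeing the data, corrections for exon GC content (splines with 4 degrees of freedom, or medians of 20 bins). Python 3.11.15, numpy 2.4.6, pandas 2.3.3, and scipy 1.17.1 were used.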

Additional observations from a re-analysis of the deposited data

Results flagged for a closer look

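In each group of 4 libraries, the gap between the most extreme library and its nearest neighbor was compared with the range of the group, for the 10 genes and for the shares of paralogs, 54 groups in all. A gap beyond Dixon's 95% limit arises by chance in about 1 in 20 groups, and 3 were found, all in WT. *Ctbp2* in WT 10 stood at 18.9 TPM, with the next library at 14.03 TPM (0.888 of the range). In WT 8, *Mta2* made up 57.1% of the TPM of *Mta1*, *Mta2*, and *Mta3*, with the next library at 49.0%, and *Mta3* made up 11.7%, with the next at 20.4%. The last 2 are the same library and the same family, so they are not independent of each other.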

How the results depend on the processing

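Counts of called genes were compared with those reported, 0, 3, and 2 of 9 genes and 0, 11, and 10 of 41 pathway genes, in the order ∆*Firre* against WT, then *Firre*-rescue against ∆*Firre* and against WT. The empirical null, whose statistics were 2.01 and 1.93 times as wide as the theoretical null in the last 2, called 0 of the 9, 0 of the 41, and 0 of all 14479 genes in both, with 421 and 470 genes at an unadjusted p under 0.05. For *Firre*-rescue against ∆*Firre*, median ratio rescaling, quantile normalization, and limma-voom each called 5 of the 9, beside 26.0%, 25.8%, and 29.8% of all genes, and the spline correction for GC called 7 pathway genes. For *Firre*-rescue against WT, only the groups compared in the fit gave 0 of the 9 and 5 pathway genes, no trend and an adjusted p of 0.05 each gave 1 of the 9, and limma-voom gave 4, beside 15.6%, 23.0%, 16.2%, and 19.9% of all genes. With one library left out, the counts of the 9 were 0, 2 to 4, and 0 to 3 (0 without WT 10), and those of the 41 were 0, 8 to 15, and 6 (without *Firre*-rescue 4) to 16 (without *Firre*-rescue 3). The cause of these shifts was not tested. *Mbd3*, *Mta1*, and *Ctbp1* kept their sign in ∆*Firre* against WT and in *Firre*-rescue against ∆*Firre* in every setting run.

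Differences changed sign in these settings. By median ratio rescaling, *Mbd2*, *Hdac1*, and *Hdac2* were at 0.048, 0.015, and 0.062 for ∆*Firre* against WT, and *Mta2*, *Hdac2*, and *Gatad2a* at 0.13, 0.032, and 0.15 for *Firre*-rescue against WT. By quantile normalization, *Mbd2* and *Hdac2* were at 0.036 and 0.049, and *Mta2* and *Gatad2a* at 0.012 and 0.12, in the same comparisons. By limma-voom, they were at 0.028 and 0.038, and at 0.077 and 0.088. After the spline correction for GC, *Mbd3*, *Chd4*, and *Hdac2* were at -0.17, -0.048, and 0.034 for *Firre*-rescue against WT, and *Mta2*, *Hdac2*, and *Gatad2a* at -0.045, 0.12, and -0.0088 against ∆*Firre*. After bin medians, *Mbd2* was at 0.064 for ∆*Firre* against WT, *Hdac2* at 0.21 and 0.19 for *Firre*-rescue against ∆*Firre* and WT, and *Mta2* at 0.066 against WT. With one library left out, *Hdac2* ran from -0.084 to 0.056 and *Mbd2* from -0.095 to 0.037 for ∆*Firre* against WT, *Mta2* from -0.021 to 0.12 for *Firre*-rescue against ∆*Firre*, and *Chd4* from -0.11 to 0.16, *Gatad2a* from -0.10 to 0.12, and *Mta2* from -0.13 to 0.031 for *Firre*-rescue against WT. Each difference that changed sign was under 0.34 in size in the fit reported.

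The sample numbers 8 and 11 occur in both WT and ∆*Firre*. Deviations of same-numbered libraries did not correlate (-0.03 and -0.04), and those of other WT and ∆*Firre* libraries ran from -0.08 to 0.18. With no pair known to be matched, such values cannot show whether the numbers pair the samples. The reported fit used no pairing. With the replicate block for that comparison, 0 of the 9 and 0 of the 41 genes were called, as without it, and *Mbd2* and *Hdac2* were at 0.0096 and 0.080. The range of library numbers as a block also gave 0 and 0.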
